A study of Mus musculus with 2 samples.

Results

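The cells described here carry the label E/B in a progenitor annotation that the authors deposited for every cell of the series. The label picked 129 of 16634 cells, with no threshold on any gene. Of these, 109 came from the spleen library, 1.67% of its 6546 cells (95% interval 1.37 to 2.01%), and 20 from the bone marrow library, 0.198% of its 10088 cells (0.121 to 0.306%). The labels and the cell table do not spell out what E/B stands for, so the cells are called E/B cells throughout.

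The study took haematopoietic stem and progenitor cells from C57BL/6 mice with an orthotopic tumour, one grown in the organ of its origin, the liver. Mice aged 6 to 8 weeks received Hepa1-6 mouse hepatoma cells in the left lobe. Spleen and bone marrow cells were enriched with magnetic beads and sorted as LSK cells, which are low or negative for lineage markers, positive for Sca1 and high for c-Kit. Each tissue gave 1 droplet 3′ RNA library, both tissues were from tumour-bearing mice, and the number of mice is not stated. The E/B cells were set against the other cells of the authors' clusters MEP (888 spleen and 354 bone marrow cells) and MCP (513 and 28 cells) of the same tissue.

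Basophils and mast cells are granule-bearing cells that carry the high-affinity receptor for IgE and release histamine, proteases and lipid mediators. Their progenitors share with erythroid and megakaryocyte progenitors the zinc-finger transcription factor GATA2, while GATA1 and KLF1 drive the erythroid programme. Cpa3 encodes carboxypeptidase A3, a protease of mast cell granules that is also transcribed in basophils and in early progenitors of both lineages. Gzmb encodes granzyme B, a serine protease best known from cytotoxic lymphocytes and also made by mast cells. Spleen and marrow progenitors of this kind give rise to tissue mast cells and blood basophils.

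The libraries held 85937174 UMIs (unique molecules counted) in the spleen and 73740963 in the bone marrow. E/B cells had a median of 6462 UMIs in the spleen (861 to 23338 per cell) and 4918.5 in the bone marrow (1243 to 12222). Spleen MEP cells were deeper (median 36109.5) and spleen MCP cells shallower (1760); bone marrow MEP and MCP cells had medians of 11363.5 and 5178.5. Because each tissue is 1 library, cells are not replicates and no difference below was tested. Intervals in brackets are exact 95% intervals that cover counting error only, and the labels and clusters sort the same cells by their expression, so gene differences between them are descriptions. Values are CPM, the UMIs of a gene in the summed cells scaled to the same total, and fold changes between summed cells do not separate fewer expressing cells from less RNA per cell. The libraries shared 16 cell barcodes, 0 of them among E/B cells, and how doublets were treated is not given in the sources used here.

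Both genes that mark the label were present in most E/B cells. In the spleen, E/B cells ranked 5 of 17 labels for both genes, below the labels Ba-1 to Ba-4. Cpa3 was at 1575 CPM (1489.6 to 1663) in spleen E/B cells, against 4795 to 8564 CPM in the 4 Ba labels and 1132 CPM in the next label down, CLP. Gata2 was at 612 CPM (559.8 to 669) in spleen E/B cells, against 804 to 1157 CPM in the Ba labels and 352 CPM in MkP-1. In bone marrow, E/B cells had the highest Cpa3 and Gata2 of the 15 labels with at least 20 cells: Cpa3 was at 1073 CPM (894 to 1277) in E/B cells against 124 CPM in the next label, Neu-1, and Gata2 at 664 CPM (525 to 829) against 390 CPM in Ery-1. Over the summed cells both markers were thus present in both tissues, and in the spleen E/B was not the label with most of either.

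The E/B cells did not form 1 cluster. In the spleen, 40 of the 109 cells (36.7%) lay in the authors' cluster MCP, 26 (23.9%) in LP, 25 (22.9%) in HSC-1 and 12 (11.0%) in HSC-2, with 3 each in HSC-3 and MEP. In bone marrow, 8 of 20 lay in MCP, 6 in HSC-2, 3 in MEP and 1 each in HSC-1, HSC-3 and LP. E/B cells made up 7.23% of the 553 cells of spleen MCP and 22.2% of the 36 cells of bone marrow MCP. Their share of MEP was 0.337% in the spleen and 0.840% in bone marrow, so few E/B cells were grouped with the erythroid-rich cluster. The other clusters, DCP and MP, held 0 spleen E/B cells.

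**Figure D1:**
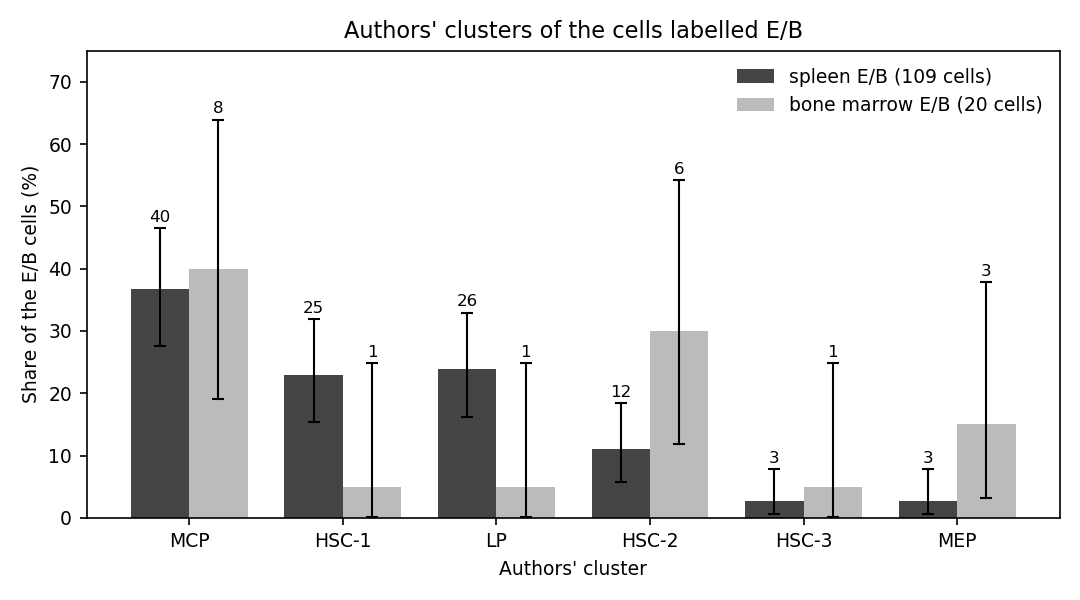
Share of the E/B cells (%, vertical axis) in each of the authors' clusters (horizontal axis), for 109 spleen cells (dark bars) and 20 bone marrow cells (light bars); error bars are exact 95% intervals for counting error and the number over each bar is the cell count. MCP was the largest group in both tissues, and LP and HSC-1 held 26 and 25 spleen cells against 1 bone marrow cell each.

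A second annotation in the deposited table, made against a mouse cell atlas, split the spleen E/B cells along the same clusters. It called 50 of 109 basophils of c-Kit-positive bone marrow, 31 gamma-delta T cells of the thymus and 15 mast cells. All 26 E/B cells of LP were called gamma-delta T cells. Of the 40 in MCP, 29 were called basophils and 10 mast cells, and of the 25 in HSC-1, 17 basophils and 5 mast cells. The 20 bone marrow cells were called basophils (7), multipotent progenitors (5), megakaryocyte progenitors (4), fetal-liver stem cells (2), mast cell (1) and gamma-delta T cell (1). Both annotations sort these same cells by expression and are not independent of the genes described next.

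Cpa3 and Gata2 were seen together in most E/B cells of MCP and HSC-1 and in few of LP. Cpa3 had at least 1 UMI in 101 of 109 spleen and 17 of 20 bone marrow E/B cells, and both genes had one in 67 of 109 and 15 of 20. In the spleen the pair was found in 39 of 40 E/B cells of MCP, 18 of 25 of HSC-1, 6 of 12 of HSC-2 and 1 of 26 of LP. Every spleen E/B cell had 1 of the 2 genes or both, and 1 bone marrow cell, in HSC-2, had neither. Thinned to 3300 UMIs per cell, Cpa3 was detected in 90% of spleen E/B cells against 3.60% of MEP cells, and Gata2 in 65.0% against 18.1%; unthinned, the MEP shares were 21.3% and 65.9%, at a median of 36109.5 UMIs per MEP cell. In bone marrow the thinned share with Cpa3 was 68.8% in E/B cells and 3.08% in MEP cells.

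Levels followed the clusters. Cpa3 was at 2535 CPM in the E/B cells of spleen MCP, 1529 in LP, 1143 in HSC-2 and 898 in HSC-1. Gata2 was at 1261 CPM in MCP, 1061 in HSC-1, 398 in HSC-2 and 4.16 in LP, where a single UMI was counted. The E/B cells of LP thus carried Cpa3 with almost no Gata2. In bone marrow, Cpa3 and Gata2 were at 2029.7 and 1539 CPM in the E/B cells of MCP and at 932 and 289.9 CPM in those of HSC-2. Of the 3 spleen E/B cells of MEP all had Gata2 and 1 had Cpa3, while the 3 in bone marrow MEP all had both genes. The 3 spleen E/B cells of HSC-3 all had Cpa3 and 2 had Gata2, and of the lone bone marrow cells the one in HSC-3 had both genes, the one in HSC-1 Gata2 alone, and the one in LP Cpa3 with Trbc1 and no Gata2, as in spleen LP.

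**Figure D2:**
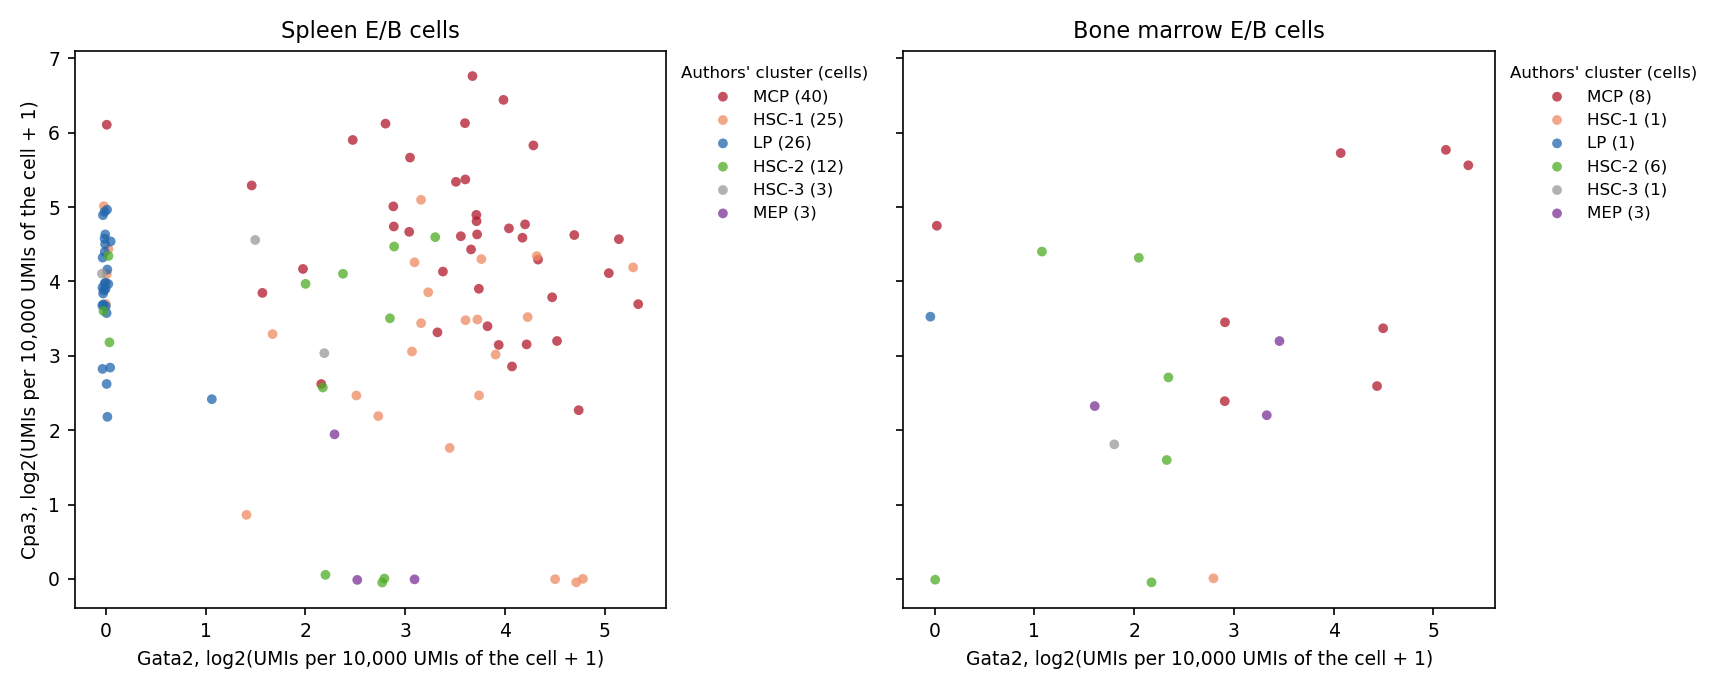
Each point is 1 E/B cell, at log2 of its Gata2 UMIs (horizontal) and Cpa3 UMIs (vertical) per 10,000 UMIs of the cell plus 1, coloured by the authors' cluster, for spleen (left) and bone marrow (right), with a small random shift for visibility. The blue LP cells of the spleen line up at a Gata2 of 0, 25 of 26 with no UMI, while 39 of 40 red MCP cells have both genes.

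GATA2 binds the core GATA, and the promoters of Cpa3 and of Ms4a2, the IgE receptor's beta chain, are shown because both genes had Gata2 beside them in the E/B cells of MCP. This did not hold in LP, where 25 of 26 spleen E/B cells had Cpa3 without Gata2. Each sequence is from RefSeq (GRCm38.p6), 300 bases around the gene's start, 5′ to 3′ on the gene's strand, with GATAA or its reverse complement TTATC in capitals. Cpa3 (chr3:20242132-20242431, minus strand) held 1 match and Ms4a2 (chr19:11623670-11623969, minus strand) held 3, of which 1 was GATAA. Of 32851 mouse promoters of this length, 8347 (25.4%) held a match on either strand. A match is a description of the letters and not a measured site.
Cpa3: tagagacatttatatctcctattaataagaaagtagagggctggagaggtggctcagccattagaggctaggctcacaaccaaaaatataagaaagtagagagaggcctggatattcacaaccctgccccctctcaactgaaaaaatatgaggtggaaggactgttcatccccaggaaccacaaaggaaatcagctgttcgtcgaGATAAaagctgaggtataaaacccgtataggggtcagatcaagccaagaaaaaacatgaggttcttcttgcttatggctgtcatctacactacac
Ms4a2: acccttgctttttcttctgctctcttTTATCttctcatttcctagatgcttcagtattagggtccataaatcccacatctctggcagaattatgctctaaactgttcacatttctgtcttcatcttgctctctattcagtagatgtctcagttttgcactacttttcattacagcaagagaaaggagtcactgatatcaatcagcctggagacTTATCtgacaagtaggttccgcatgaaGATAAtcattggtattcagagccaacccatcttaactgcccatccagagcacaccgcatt

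The E/B cells of spleen MCP and HSC-1 shared a set of mast cell and basophil genes, with the chymase Cma1 in only part of the cells. Gzmb (GRCm38 chromosome 14, 56258838 to 56262260) was at 7798 CPM in the E/B cells of MCP, with UMIs in 36 of 40 cells, and at 6714 CPM in those of HSC-1, in 21 of 25. The 26 E/B cells of LP held 2 Gzmb UMIs, and spleen MEP cells were at 5.29 CPM. Cyp11a1, which encodes the enzyme of the first step of steroid synthesis, was at 927 CPM in E/B cells of MCP, 487 in HSC-1, 63.5 in HSC-2 and 4.16 in LP. Among the spleen clusters with 12 or more E/B cells, Gzmb and Cyp11a1 were high in MCP and HSC-1. Of the smaller sets, 2 of the 3 E/B cells of MEP and 1 of the 3 of HSC-3 also had Gzmb UMIs, with 78 in 1 MEP cell and 25 in the HSC-3 cell.

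Ms4a2 was even over 3 of the clusters, at 369.8, 352 and 334 CPM in the spleen E/B cells of MCP, HSC-2 and HSC-1, and at 0 UMIs in those of LP. Cma1 (GRCm38 chromosome 14, 55941451 to 55944675), a chymase stored in mature mast cell granules, was at 851 CPM in E/B cells of MCP, with UMIs in 21 of 40, 265 in HSC-1, with UMIs in 9 of 25, 16.6 in LP and 5.77 in HSC-2, against 9833 CPM in the other MCP cells and 37.2 in the other LP cells. Within MCP, Cma1 was the gene of these 4 on which E/B cells and the other cells lay furthest apart.

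The E/B cells of spleen LP were, apart from Cpa3, cells with T-lineage RNA. Trbc1 (GRCm38 chromosome 6, 41538218 to 41539881), a constant-region gene of the T cell receptor beta chain, had UMIs in 26 of 26 of them, at 2510.1 CPM. Trbc2 was at 852 CPM, the T-lineage transcription factor genes Tcf7, Bcl11b and Gata3 at 644, 673 and 216 CPM, the interleukin 7 receptor gene Il7r at 652 CPM and the kinase gene Lck at 328 CPM. Over the 13 genes listed for T, natural killer and innate lymphoid cells, 10 had UMIs and the summed level was 5502 CPM, against 397 in the E/B cells of MCP and 4142 in the other LP cells. Mast cell genes summed to 1662 CPM there, most of it Cpa3, against 16576 CPM in the E/B cells of MCP. The basophil list summed to 83.1 CPM in these 26 cells, against 6372 in the E/B cells of MCP, and the eosinophil list to 0.

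Trbc1 reached beyond LP, in MCP and HSC-1 without Trbc2 in the same cells. It had UMIs in 24 of 40 E/B cells of MCP (339 CPM) and 13 of 25 of HSC-1 (376 CPM), and Trbc2 was found in 0 of those 24 and 0 of those 13 cells, against 21 of 26 Trbc1 cells in LP and 3 of 4 in HSC-2. The other MCP cells had Trbc1 in 46 of 513 cells. Among cells deep enough to be thinned to 3300 UMIs the shares were 50.0% in E/B cells of MCP, 27.3% in the other MCP cells and 2.25% in MEP cells. Trbc1 and Trbc2 are near-identical over their coding part, so reads of one could have been counted for the other.

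A smaller group of E/B cells carried neutrophil-lineage RNA. Mpo encodes myeloperoxidase, the main enzyme of primary granules. In the spleen, 216 of the 218 Mpo UMIs of E/B cells lay in the 12 cells of HSC-2, where 8 cells had Mpo (1247 CPM) and 1 cell held 124 of the UMIs. In bone marrow, Mpo was found in 10 of 20 E/B cells at 1405 CPM, including 5 of the 6 cells of HSC-2 (2837 CPM). Elane and Ctsg, which encode neutrophil elastase and cathepsin G, were at 44.2 and 185 CPM in spleen E/B cells and at 459.8 and 758 CPM in bone marrow E/B cells. Neutrophil and monocyte genes summed to 4865 CPM in the spleen E/B cells of HSC-2 and 882 in those of MCP, and in bone marrow to 10996 and 2848 CPM, so in both tissues this RNA was higher in HSC-2 than in MCP.

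The genes of eosinophil granules were at or near 0 in E/B cells of both tissues, while the wider list was not. Epx, Prg3, Il5ra, Ear1, Ear2 and Ear6, which encode eosinophil peroxidase, a granule protein, the interleukin 5 receptor alpha chain and ribonucleases, had 0 UMIs in all 129 cells, and Prg2 had 0 in the spleen and 1 in bone marrow. Of the 12 listed eosinophil genes, 0 reached the level taken as measured against MEP cells in either tissue. The 12 genes summed to 108 CPM in spleen E/B cells against 4.78 in MEP and 257 in MCP cells, and to 93.7 against 18.7 and 121 CPM in bone marrow. Of the 88 UMIs in the spleen, 70 were of Cd300a, an inhibitory receptor gene of several myeloid cells, mast cells among them. A count of 0 in the spleen E/B cells allows up to 3.68 CPM. Macrophage genes summed to 17.2 CPM and the liver and tumour list to 45.4 CPM in spleen E/B cells, with Alb, Apoa1, Ttr, C1qa, C1qb and C1qc at 0. Kit, the receptor gated on, was at 728 CPM in spleen E/B cells and 358 in bone marrow, while Ly6a, which encodes the gated Sca1, was at 60.1 and 8.52 CPM.

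**Figure D3:**
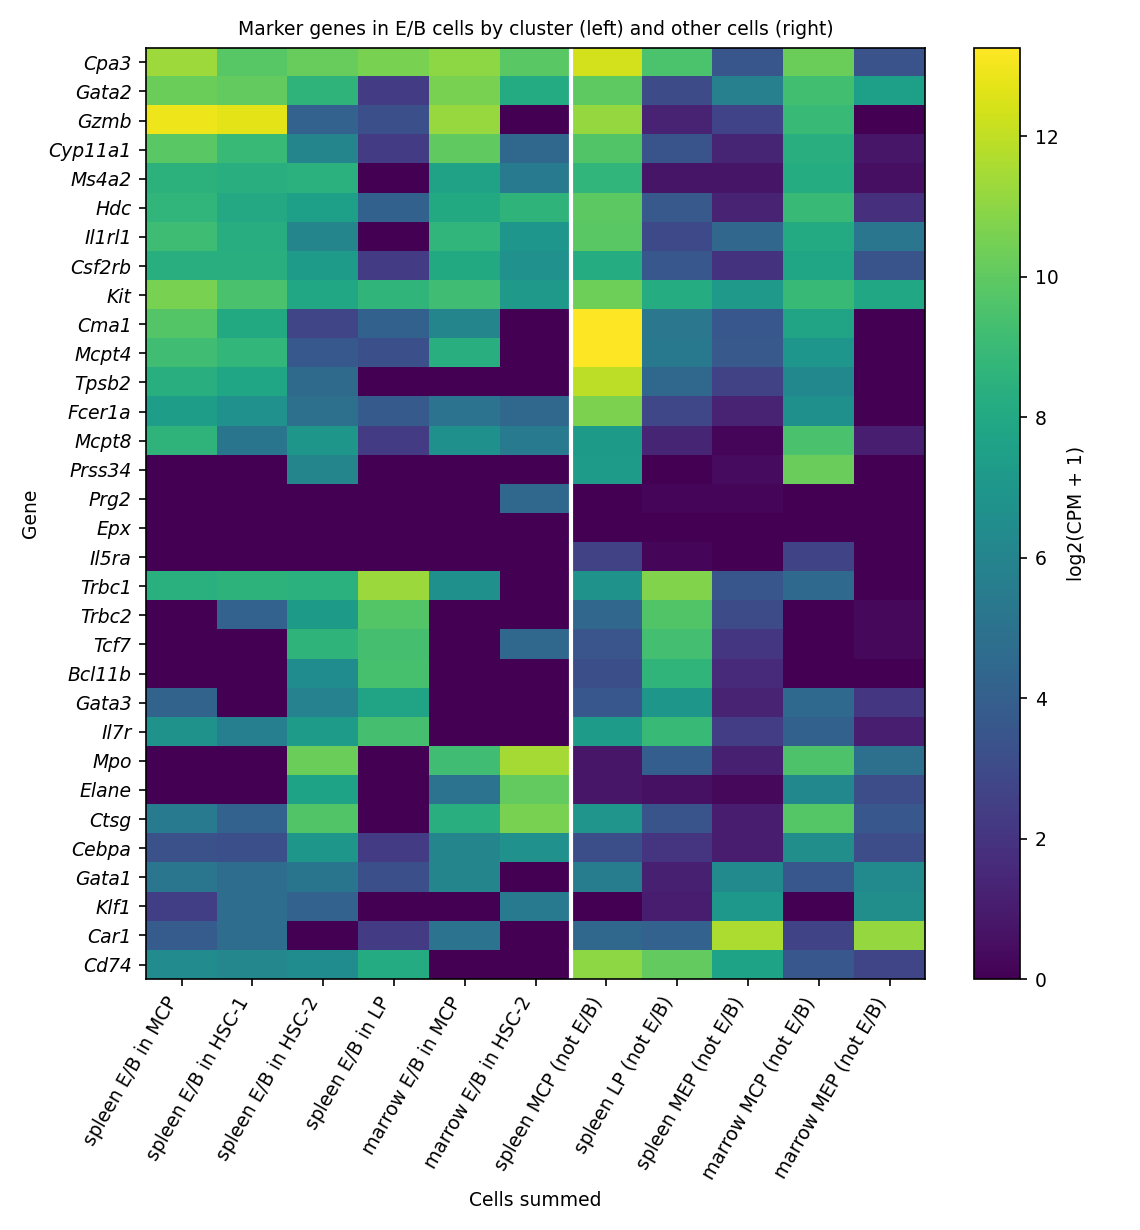
Level of each marker gene (rows) as log2(CPM + 1) in the E/B cells of each cluster with 6 or more cells, left of the white line, and in the other MCP, LP and MEP cells, right of it. E/B cells of spleen MCP and HSC-1 share high Gzmb and Cyp11a1, with less Cma1 than the other spleen MCP cells. The E/B column of LP is bright for Trbc1 to Il7r and dark for Gata2, and Mpo is bright in HSC-2 of both tissues.

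Against MEP cells of the spleen, E/B cells had more basophil and mast cell RNA and less erythroid RNA. Genes were taken as measured when the 2 sums averaged 50 CPM or more. Of 3256 such genes, 635 (19.5%) were higher in E/B cells by a factor of 2 or more and 641 (19.7%) lower, with a median log2 ratio of -0.08. All 10 measured mast cell genes were higher (median log2 ratio 4.44), as were all 4 measured basophil genes (6.64), 7 of 8 genes of the IgE receptor and its signalling and 8 of 10 for granules and mediator synthesis. Only measured members are counted, and a low gene was measured through the group where it was high. Gzmb had the highest log2(CPM + 1) ratio of the genes ranked, at 3245 CPM in E/B cells against 5.29 in MEP cells, 614-fold (525 to 722) higher. Ms4a2 was 353-fold (226 to 575) higher, Cpa3 145-fold (129 to 164) and the basophil protease gene Mcpt8 884-fold (368 to 2775), on 5 UMIs in MEP cells. Hdc, which encodes the enzyme that makes histamine, was 137-fold higher and Fcer1g, the shared gamma chain of Fc receptors, 71.4-fold. The MCP E/B cells alone gave the same direction for Gzmb, Cpa3 and Gata2.

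The erythroid list ran the other way, with 10 of 12 measured members lower (median log2 ratio -3.51). Car1, carbonic anhydrase 1, had 9 UMIs in the 109 E/B cells, at 11.0 CPM against 3132 in MEP cells, and was 284-fold (149 to 620.2) lower. Klf1, the erythroid regulator, was 15.5-fold lower, its partner Gata1 3.43-fold, the GATA1 cofactor Zfpm1 3.88-fold and Lmo2 3.67-fold. Gata2 was 11.6-fold (10.4 to 12.8) higher. Hbb-bt, an adult beta globin gene whose reads a near-identical copy can share, was the 1 list member that was higher. The E/B cells were therefore low for the products and regulators of the erythroid lineage and high for Gata2 alone among these 5 regulators.

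Receptors, adhesion genes and stress genes also differed in the spleen. All 5 measured cytokine receptor genes were higher in E/B than in MEP cells: Csf2rb, the beta chain shared by receptors for interleukins 3 and 5 and GM-CSF, 64.6-fold, Il7r 61.3-fold, Il1rl1, the interleukin 33 receptor, 11.0-fold, Kit 5.10-fold, and Il2rg. Only 5 of the 21 listed were measured, and a low gene was measured through the group where it was high. Over all 21, the sums were 1892 CPM in E/B and 317 in MEP cells. Of all measured genes, 19.5% were higher and 19.7% lower. Homing and adhesion genes had 6 of 8 measured members higher, and of 3 measured mediator genes the chemokines Ccl4 and Ccl3 were higher, Ccl4 274-fold (193 to 397). All 13 measured immediate early genes were higher than in MEP cells (median log2 ratio 3.69), among them Fos 18.4-fold and Klf6 20-fold. Against spleen MCP cells 0 of 13 were higher and 4 lower, Klf6 among them (median -0.77). Of 15 mitosis genes 14 were lower than in MEP cells, with Mki67, a proliferation marker, 3.71-fold lower. MEP cells had a median of 36109.5 UMIs against 6462 in E/B cells, so depth moved with the label; thinned to 3300 UMIs per cell, Gzmb, Cpa3, Gata2, Car1 and Mki67 had log2 ratios of the same sign.

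All 7 measured of 12 lymphoid progenitor genes and all 5 measured of 13 T-lineage genes were also higher in E/B than in MEP cells. Of all measured genes, 19.5% were higher. A low gene was measured through the group where it was high, so these counts depend on the filter. Over all members, E/B against MEP cells summed to 1633 and 86.7 CPM for lymphoid progenitor genes. For T-lineage genes the sums were 2086 and 29.0 CPM. Without the 26 LP cells, Trbc1 still had a log2 ratio of 4.95, against 6.41 with them.

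Against the other MCP cells, spleen E/B cells had lower levels of most listed mast cell genes and were not lower for Gzmb. Of 3350 measured genes, 213 (6.36%) were higher in E/B cells by that factor and 287 (8.57%) lower (median log2 ratio 0.03). Of 18 measured mast cell genes 15 were lower and 0 higher (median -1.92), of 8 basophil genes 4 were lower, and of 7 antigen-presenting genes 6 were lower (median -3.42). Cluster makeup moved with these values. Mast cell genes summed to 1662 CPM in the E/B cells of LP against 16576 in those of MCP. With E/B cells of MCP alone, 8 of the 18 mast cell genes were lower, and Il1rl1, Mitf, Itgb7 and Cyp11a1 were no longer among them. Cma1 was at 279 CPM in E/B cells against 9833 in MCP cells, 35.3-fold (31.0 to 40.4) lower, and the chymase gene Mcpt4 36.6-fold (32.0 to 42.1) lower. The tryptase genes Tpsb2 and Tpsab1 were 31.6-fold and 90.6-fold lower, and Fcer1a, the IgE-binding chain, 20.3-fold; the chymases and the tryptases each belong to families of similar genes that could share reads. Cpa3 was 3.34-fold (3.15 to 3.55) lower and Gata2 1.64-fold, inside the 2-fold limit. Gzmb was at 3245 CPM in E/B cells and 2311 in MCP cells, 1.40-fold (1.33 to 1.48) higher. The thinned log2 ratio was -0.0037, over the 100 E/B and 121 MCP cells deep enough, with 392 MCP cells left out.

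The T-lineage and neutrophil genes that were higher in spleen E/B than MCP cells lay mostly in E/B cells of LP and HSC-2. All 5 measured T-lineage genes were higher, with Tcf7 26.5-fold, Bcl11b 27.2-fold and Lck 31.0-fold higher, and Mpo was higher with 218 UMIs against 1 (359.9-fold (63.9 to 14282)). With E/B cells of MCP alone, where Tcf7, Bcl11b, Lck, Trbc2 and Mpo had 0 UMIs, these genes did not stay higher, apart from Trbc1. Myb, a transcription factor of immature progenitors, was 5.74-fold higher, Lmo4 2.84-fold, the integrin gene Itga4 2.78-fold and Mki67 4.69-fold. Ly6a was 13-fold lower and the class II chaperone gene Cd74 14.7-fold.

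Within the cluster MCP the E/B cells could be set against cells of their own cluster, a comparison added after the data were seen. Of 3306 measured genes, 126 (3.81%) were 2-fold or more higher in the 40 E/B cells than in the other 513 and 172 (5.20%) lower. Gzmb was at 7798 CPM in the E/B cells against 2311, 3.37-fold (3.18 to 3.58) higher, with UMIs in 36 of 40 against 123 of 513 cells. Thinning left out 4 of the 40 and 392 of the 513 cells as too shallow. Among the 36 and 121 cells left, the thinned shares were 100% and 72.7%, so the second describes a deeper subset. Mcpt8 was 2.57-fold higher, and Gzmb and Mcpt8 were the 2 members of the mast cell and basophil lists that were at least 2-fold higher. Thinned, Mcpt8 was found in 41.7% of these E/B cells and 33.9% of the other MCP cells. In the 99 spleen Ba-4 cells deep enough, Mcpt8 was found in 41.4% and Gzmb in 85.9%. Neither gene was thus particular to the E/B label. Of 18 mast cell genes 8 were lower: Mcpt4 16.8-fold, Tpsb2 12.3-fold, Cma1 11.6-fold and Cpa3 2.07-fold (1.90 to 2.26) among them. Fcer1a was 9.31-fold lower while Ms4a2 differed little (log2 ratio -0.19), as did Gata2 (0.33), Kit (0.27) and Cyp11a1 (0.20). The basophil protease gene Prss34 had 0 UMIs in the E/B cells and was at least 11.3-fold lower.

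Antigen-presenting genes were also lower within MCP, and a few single genes were higher. Angpt1, the ligand gene angiopoietin 1, was 5.31-fold higher in the E/B cells, the organic cation transporter gene Slc22a3 10.3-fold, the integrin gene Itga4 2.15-fold (2 of 11 measured homing and adhesion genes were higher) and the mitosis gene Cenpf 4.46-fold. Of 6 measured antigen-presenting genes 5 were lower (median log2 ratio -4.31), with Cd74 24.2-fold and Cst3 11.3-fold lower, and Ly6a was 11.0-fold lower. The 15 listed antigen-presenting genes summed to 512 CPM in the E/B cells of MCP and 7339 in the other MCP cells. Spleen cells labelled Ba-1 to Ba-4, from any cluster, were at 833, 1022, 2305 and 1861 CPM, well under the other MCP cells. The difference thus describes a mixed cluster, and is smaller against the Ba labels. E/B cells of MCP had a median of 5274.5 UMIs against 1760 in the other MCP cells, so depth moved with the label. Thinning to 3300 UMIs kept 36 E/B cells and 121 of the other MCP cells, the deeper part of that group. Among these the log2 ratios were 0.84 for Gzmb, -3.12 for Cma1, -5.03 for Mcpt4, -4.93 for Cd74 and -0.74 for Cpa3. Gzmb and Cpa3 were thus under 2-fold apart there, and Mki67 had -0.057 against 1.35 over all cells unthinned. Depth and the set of cells changed together, so the thinned values are not a depth correction of the same cells.

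Within LP, the comparison also added after the data were seen, the E/B cells were set against the other 667 cells. Of 3295 measured genes, 36 (1.09%) were 2-fold or more higher and 49 (1.49%) lower; thinned to 3300 UMIs per cell, 155 were higher and 142 lower. Cpa3 was at 1529 CPM in the E/B cells against 724 in the other LP cells, 2.11-fold (1.89 to 2.35) higher (a log2 ratio of 0.95 when thinned), and was common in both: UMIs were found in 26 of 26 and 502 of 667 cells, the second 63.8% when thinned. Zbtb16, which encodes the PLZF factor of innate-like T cells, was 3.08-fold higher, the T cell receptor gamma gene Tcrg-C4 2.41-fold, Rora 2.20-fold and the DNA replication gene Mcm3 2.30-fold. Tcf7 was level (log2 ratio 0.02). Of 9 measured antigen-presenting genes 6 were lower, and Spi1, Flt3 and Mef2c, known from myeloid and early lymphoid progenitors, were lower, Flt3 6.05-fold, Mef2c 3.80-fold and Spi1 by a ratio of 8.69-fold (2.96 to 42.3) on 3 UMIs in the E/B cells. The neutrophil and monocyte genes had 0 of 2 measured members lower.

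Bone marrow E/B cells also had more mast cell and basophil RNA and less erythroid RNA than MEP cells. Of 3208 measured genes, 407 (12.7%) passed the 2-fold limit upward in the 20 E/B cells and 265 (8.26%) downward (median log2 ratio 0.08). All 6 measured of 18 mast cell genes, all 4 of 14 basophil genes and all 8 of 18 neutrophil and monocyte genes were higher. Of 12 measured erythroid genes 9 were lower. Here too a low gene was measured through the group where it was high, so these counts depend on the filter. Over all members, E/B against MEP cells summed to 3227 and 306 CPM for mast cell genes and 2146 and 360 for basophil genes. The sums were 6020 and 781 CPM for neutrophil and monocyte genes and 886 and 6230 for erythroid genes. Cpa3 was at 1073 CPM in E/B cells against 9.57 in MEP cells, 112-fold (78.0 to 164) higher, and Gata2 3.69-fold (2.89 to 4.67) higher. Gzmb was at 613 CPM in E/B cells and at 0 in MEP cells, at least 854-fold higher, and all of its UMIs lay in 6 cells of MCP. Cyp11a1 was higher by a ratio of 392-fold (123 to 1996) on 3 UMIs in MEP cells, Elane was 60.1-fold higher and Lmo4 14.6-fold. Car1 was lower by 88.6-fold (30.3 to 429.7), on 3 UMIs in E/B cells. Immediate early genes were higher than in MEP cells here too, 12 of 13 measured members (median log2 ratio 1.94). Against bone marrow MCP cells 2 of 13 were higher and 0 lower (median 0.05). In the comparison with MEP cells, mitosis genes had 0 of 9 measured members lower, against 14 of 15 in the spleen. Stem cell genes had 1 of 8 higher, against 6 of 8 in the spleen. These differences between tissues were not tested.

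Against the 28 other MCP cells of bone marrow, the E/B cells lay close for Cpa3 and Gata2. They lay apart for several basophil genes and for part of the neutrophil and monocyte list. Of 3324 measured genes, 226 (6.80%) were 2-fold or more higher and 195 (5.87%) lower. Cpa3 had a log2 ratio of -0.20 (1073 CPM in E/B cells against 1234 in MCP cells), with a ratio interval of 0.693 to 1.09, and Gata2 one of 0.13. Elane was 6.45-fold (3.47 to 12.9) higher, Ms4a3, another gene of neutrophil progenitors, 3.43-fold. Mcpt8 was 16.2-fold (6.77 to 50.8) lower, Prss34 had 0 UMIs in E/B cells and was at least 46.4-fold lower, and 5 of 9 measured basophil genes, 6 of 7 lymphoid progenitor genes and 3 of 11 stem cell genes were lower. Neutrophil and monocyte genes had 4 of 9 measured members higher and 0 lower. The 4 were Elane, Ms4a3, Nkg7 and Calr, the last also counted among the chaperones. Mpo was not among them and was found in 10 of 20 E/B and 15 of 28 MCP cells. Mast cell genes were mostly within 2-fold, with 2 of 10 lower. Cluster makeup moved with these values: neutrophil and monocyte genes summed to 2848 CPM in the 8 E/B cells of MCP and 10996 in the 6 of HSC-2, against 3334 in the other MCP cells, and basophil genes to 4190.3 and 1118 CPM against 5111. All genes together, the E/B and MCP sums held 117439 and 182347 UMIs, and a gene at the 50 CPM minimum then rests on a handful of molecules.

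Spleen E/B cells set against bone marrow E/B cells differed in lineage makeup. Of 3327 measured genes, 206 (6.19%) were 2-fold or more higher in the spleen and 185 (5.56%) lower (median log2 ratio -0.05). Mast cell genes had 6 of 12 measured members higher in the spleen and 0 lower, T-lineage genes 5 of 5 higher, lymphoid progenitor genes 5 of 8 higher, and neutrophil and monocyte genes 6 of 8 lower. Cma1 was 16.4-fold (4.48 to 136) higher in the spleen on 2 UMIs in bone marrow, Gzmb 5.29-fold (4.19 to 6.79), Mcpt8 3.29-fold and Kit 2.03-fold. Cpa3 was 1.47-fold (1.22 to 1.78) higher, under the 2-fold limit, with a log2 ratio of 1.05 when thinned, and Gata2 had a log2 ratio of -0.12, or 0.30 when thinned.

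Neutrophil genes were the clearest on the other side. Elane was 10.4-fold lower in the spleen, Prtn3 6.94-fold, Mpo 5.25-fold (4.26 to 6.46) and Ms4a3 12.1-fold. Il7r, Ly6d and Cd74 had 0 UMIs in bone marrow E/B cells and were at least 10.5-fold, 18.6-fold and 5.43-fold higher in the spleen. The chemokine receptor gene Cxcr4, which holds progenitors in the marrow, was 2.94-fold lower in the spleen. LP cells made up 23.9% of the spleen set and 1 of 20 in bone marrow, and HSC-2 cells 11.0% and 6 of 20, so the cluster makeup moved with the tissue. With E/B cells of MCP alone (40 and 8 cells), Tcf7, Bcl11b, Lck and Trbc2 were at 0 UMIs in both tissues, which in the 8 bone marrow cells allows up to 98.2 CPM.

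**Figure D4:**
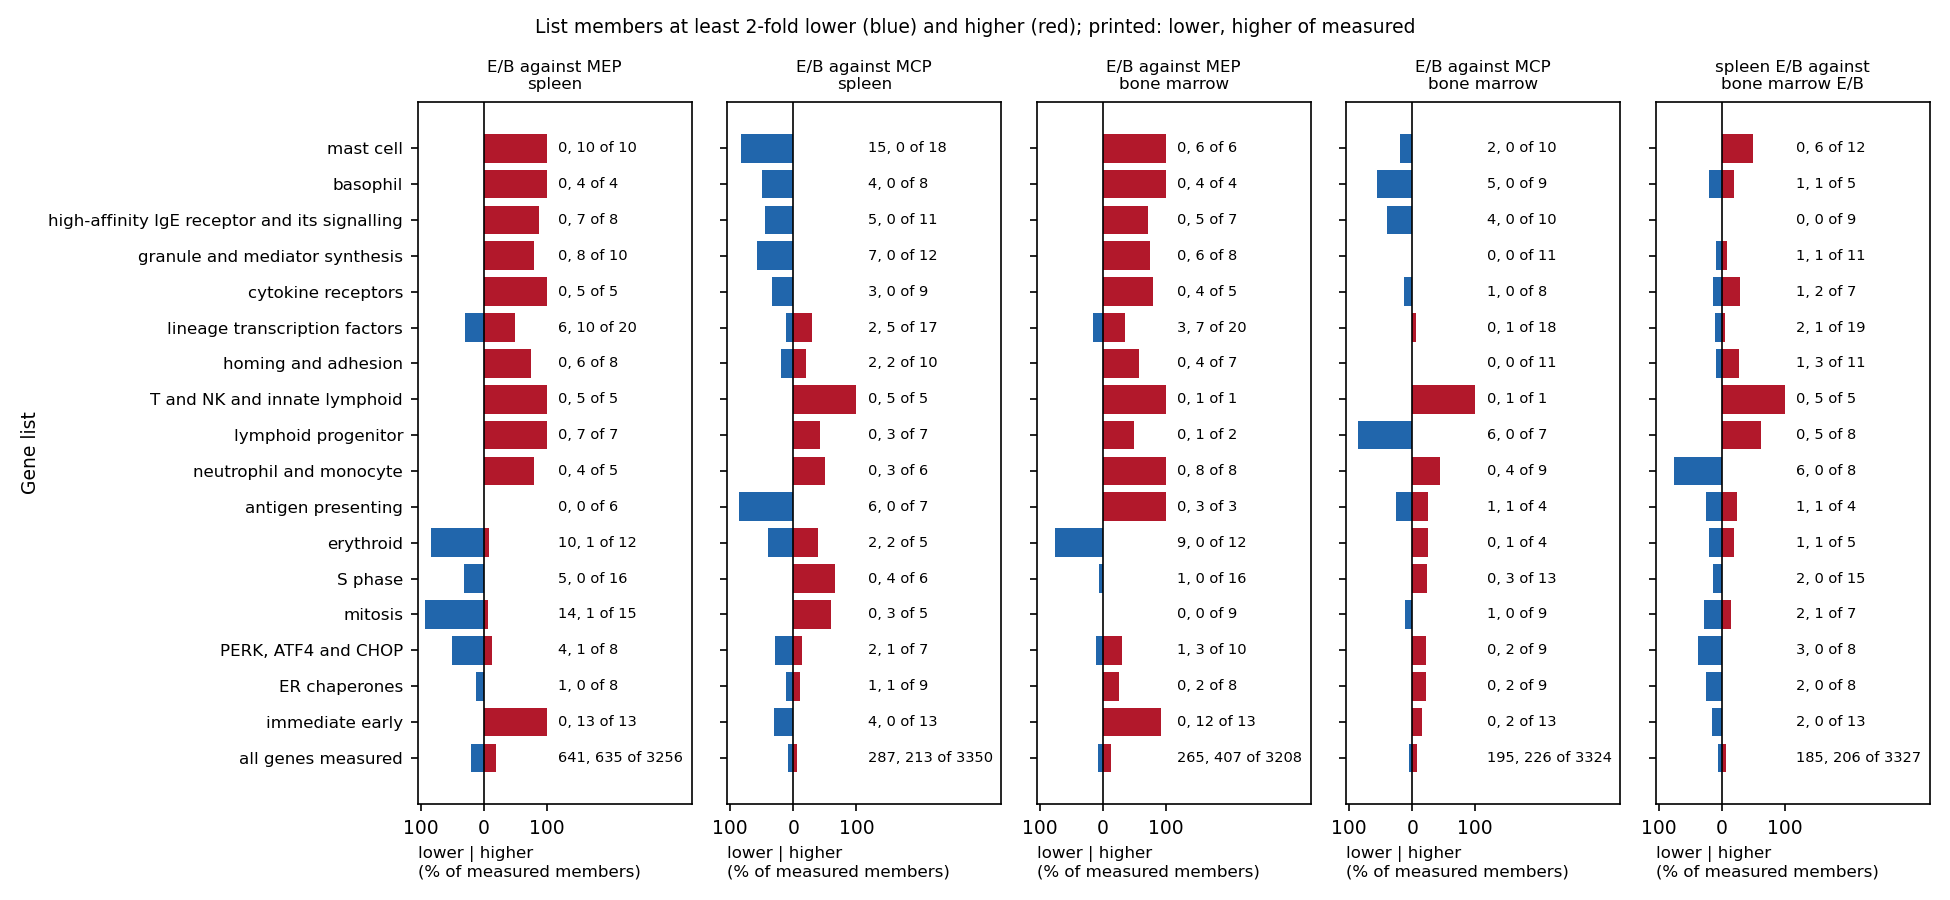
Share of the measured members of each gene list (rows) that was at least 2-fold lower (blue, to the left) or higher (red, to the right) in 5 comparisons, with the counts lower, higher and measured printed beside each bar and all measured genes in the bottom row. Mast cell and basophil lists are red against MEP and blue against MCP in the spleen, and neutrophil genes are blue in the spleen against bone marrow.

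Among lineage transcription factors, 10 of 20 measured genes were at least 2-fold higher in spleen E/B than MEP cells and 6 lower. Those higher were Id2, Ikzf2, Lmo4, Gata2, Meis1, Fli1, Spi1, Runx1, Ikzf1 and Stat5b, and those lower Gfi1b, Gata1, Lmo2, Myc, Zfpm1 and Klf1. Over all measured genes, 19.5% were higher and 19.7% lower. In bone marrow 7 of 20 were higher (Id2, Lmo4, Ikzf2, Fli1, Gata2, Spi1 and Runx1) and 3 lower (Gata1, Myc and Klf1), all named in the spleen lists too. The shares over all measured genes there were 12.7% and 8.26%. Against spleen MCP cells, Myb, Lmo4, Nfe2, Runx1 and Ikzf2 were higher and Cebpb and Mitf, which encode a myeloid factor and the mast cell factor MITF, lower. In that comparison 6.36% of all measured genes were higher and 8.57% lower. All 7 genes higher in bone marrow, Gata2 and Lmo4 among them, thus stood higher against MEP cells in both tissues. Of these, Lmo4 and Runx1 were also at least 2-fold higher within spleen MCP, as were 3.81% of all measured genes. How many of all genes were higher against MEP cells in both tissues is not given here.

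Genes of the endoplasmic reticulum stress response, the pathway named in the title of the series, were mixed in direction. PERK, encoded by Eif2ak3, is a sensor of unfolded proteins whose activity raises translation of the factor ATF4, and CHOP (Ddit3) and GADD34 (Ppp1r15a) lie downstream. Eif2ak3 was at 7.36 CPM in spleen E/B cells, 5.06 in MEP and 8.92 in MCP cells, and in bone marrow at 8.52, 7.18 and 16.5 CPM. Atf4 was at 109 CPM in spleen E/B cells, 135 in MEP and 162 in MCP cells, and at 289.5, 154 and 230.3 CPM in bone marrow. Eif2ak3 was low in every group, and Atf4 was highest in E/B cells in bone marrow but not in the spleen. Against MEP cells, 1 of 8 measured genes of the PERK arm was higher and 4 lower in spleen E/B cells, and 3 of 10 were higher and 1 lower in bone marrow E/B cells. Over all measured genes, 19.5% were higher and 19.7% lower in the spleen, and 12.7% and 8.26% in bone marrow. A single member of 8 or 10 is thus near or under the share over all genes. Asns, which encodes asparagine synthetase, an ATF4 target, was lower in both and among the lowest ranked genes: it had 1 UMI in spleen E/B cells, or 1.23 CPM against 172 in MEP cells, a ratio of 139.8-fold (25.1 to 5521) lower. In bone marrow it had 0 UMIs in E/B cells against 106 CPM in MEP cells, at least 4.17-fold lower. Spleen E/B cells set against bone marrow E/B cells had 3 of 8 lower, namely Atf4 2.65-fold, Ppp1r15a 2.88-fold and Psat1, and 2 of 8 chaperone genes lower, Hspa5 2.11-fold and Calr 2.28-fold. In that comparison 5.56% of all measured genes were lower. Of 8 chaperones, 1 was lower in spleen E/B than MEP cells, and 2 (Hspa5 2.13-fold and Calr 2.69-fold) were higher in bone marrow E/B than MEP cells.

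The authors' per-cell scores placed E/B cells between MEP and MCP cells for the erythroid programme. The erythroid score was 0.165 ± 0.184 (mean ± SD over cells) in spleen E/B cells, 0.384 ± 0.112 in MEP and 0.109 ± 0.140 in MCP cells, and in bone marrow 0.212 ± 0.156, 0.322 ± 0.131 and 0.126 ± 0.135. Within spleen E/B cells it was 0.202 ± 0.111 in MCP and -0.0129 ± 0.131 in LP. The endoplasmic reticulum stress score was 0.110 ± 0.0449 in spleen E/B cells, against 0.144 ± 0.0344 in MEP and 0.0916 ± 0.0543 in MCP cells, and in bone marrow 0.106 ± 0.0370, 0.0896 ± 0.0320 and 0.0945 ± 0.0382. The ranges of mean ± SD overlapped for each of these pairs. The summed erythroid genes had the same order as the score over these 3 spleen groups but not within E/B cells. They were at 857 CPM in spleen E/B cells, 8459 in MEP and 746 in MCP cells, and at 597 CPM in E/B cells of MCP and 1026 in those of LP, the reverse of their scores.

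The stemness score was higher in the E/B cells of HSC-2 than in those of MCP on average, and higher still in spleen MEP cells. The stemness score was 0.485 ± 0.281 in spleen E/B cells of HSC-2 and 0.000801 ± 0.183 in those of MCP, and the widely spread myeloid score 0.228 ± 0.443 and 0.0265 ± 0.201. Stemness was 1.01 ± 0.282 in spleen MEP cells, and in bone marrow 0.501 ± 0.313 in MEP and 0.179 ± 0.267 in E/B cells. Median UMIs were 14226 in the HSC-2 E/B cells, 5274.5 in the MCP E/B cells and 36109.5 in spleen MEP cells. Depth thus moved with the score, and its part was not tested. Pseudotime, the authors' position along a fitted path, was given for 89 of 109 spleen and 6 of 20 bone marrow E/B cells. It was 9.62 ± 0.210 in spleen E/B cells of MCP, 9.01 ± 0.840 in HSC-1 and 14.8 ± 1.29 in LP, against 9.60 ± 0.490 in the other MCP cells and 12.7 ± 1.73 in the other LP cells. E/B cells of LP thus sat later than the rest of LP on average, and those of MCP beside the rest of MCP.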

How the data were processed

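E/B cells of 1 spleen and 1 bone marrow library were described. The UMI counts per gene and cell were deposited by the authors unnormalised; per the series' design text, reads were aligned to GRCm38 (mm10) with Cell Ranger 3.1.0, while the submitters' processing notes name Seurat 3.1.5 and mm9. Labels, clusters and per-cell scores (each a score on its own scale) were deposited by the authors in a cell table, and how they were made is not given in the sources used here. The deposited integrated matrix was not used.

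Counts were summed over the cells of a group, divided by the group's total and multiplied to CPM. A log2 ratio used a pseudocount of 1 CPM, fold changes are ratios of CPM, a gene counted as measured when its 2 sums averaged 50 CPM or more, and called means at least 2-fold. MEP and MCP are the authors' clusters without E/B cells. Gene IDs got symbols from GENCODE M21. Intervals are exact (Poisson, conditional ratio and Clopper-Pearson, 95%), and a count of 0 was read as at most 3 counts per group. Thinning drew 3300 UMIs per cell without replacement and left out shallower cells. Doublets were not called, and no cell was filtered beyond the deposited tables.

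Genes named are, per comparison, among the 12 highest and 12 lowest log2 ratios with at least 100 CPM in either sum (no Gm or Rik models), the measured members of the basophil, mast cell, eosinophil, transcription factor and cytokine receptor lists, the 2 highest and 2 lowest of every other list, and a fixed set with Cpa3 and Gata2; other genes named were chosen after their values were seen. Members and lists were chosen with earlier results of these data known. The 2 comparisons within a cluster and the settings without LP cells were added after seeing the data. Values were computed with Python 3.11.15, numpy 2.4.6, scipy 1.17.1 and pandas 2.3.3, and the summing and ratios were tested on simulated data.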

Additional observations from a re-analysis of the deposited data

Results flagged for a closer look

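Mt1, a metallothionein gene, ran in opposite directions against MCP cells in the 2 tissues. In the spleen it was at 94.5 CPM in E/B cells and 253 in MCP cells, a log2 ratio of -1.41. In bone marrow it was at 187 CPM in E/B cells (22 UMIs) and 60.3 in MCP cells (11 UMIs), a log2 ratio of 1.62. With 1 library per tissue the difference between the tissues was not tested.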

How the results depend on the processing

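Counts of genes below are those higher, then lower, in the comparisons of E/B with MEP and MCP cells in the spleen, with MEP and MCP cells in bone marrow, spleen with bone marrow E/B cells, and E/B with the other cells of LP and of MCP, in that order. With a mean of at least 100 CPM they were 276 and 335, 78 and 162, 172 and 103, 45 and 41, 61 and 59, 17 and 19, and 51 and 81. With no filter on low values they were 4089 and 1802, 2567 and 1692, 2307 and 3216, 1961 and 2785, 4500 and 1561, 997 and 2675, and 1716 and 2737. At 1.5-fold, spleen E/B against MEP cells had 1048 lower, and the other comparisons had 588 and 568, 818 and 587, 625 and 467, 504 and 530, 238 and 222, and 536 and 450. Thinned to 3300 UMIs per cell, spleen E/B against MCP cells had 168 lower, bone marrow E/B against MCP cells 555 and 407, spleen against bone marrow 380 and 428, and E/B against the other LP cells 155 and 142. With each cell weighted alike, bone marrow E/B against MCP cells had 334 lower and E/B against the other MCP cells 252 higher. With E/B cells of MCP alone, spleen E/B against MCP cells had 126 and 172, and spleen against bone marrow 490 and 602.

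Of 643 recomputed log2 ratios of named genes 431 stayed inside the counting interval and 5 turned round. With E/B cells of MCP alone, the ratios against spleen MCP cells were -3.20 for Bcl11b, -2.24 for Lck, -0.80 for Mpo and -3.51 for Tcf7. All 4 genes had 0 UMIs in those 40 E/B cells, and Mpo was found in 1 of the other 513 MCP cells. As a 0 was read as at most 3 counts, these ratios rest on the pseudocount and do not establish lower levels. Thinned, Mki67 in E/B against the other MCP cells was -0.057, with 392 of those 513 other cells left out as too shallow. By construction the E/B cells of MCP leave out LP and HSC-2. The cause of the Mki67 change was not tested. TMM scaling moved the median of all genes by 0.106 for bone marrow E/B against MEP cells. The share of E/B cells in each library and the shares of E/B cells with Cpa3 and with Gata2 stayed inside their intervals. No paired analysis was possible because each tissue is 1 library. MEP cells by the progenitor annotation could not be taken, as it holds no such label among these cells. The comparisons with MEP and MCP cells were not repeated for the 8 E/B cells of bone marrow MCP. Those 8 cells were used in the comparison of the tissues with E/B cells of MCP alone. Depth limits the bone marrow sums, where 0 UMIs allow up to 25.5 CPM in the 20 E/B cells and 98.2 CPM in the 8 of MCP.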
